A study of Arabidopsis thaliana with 24 samples.

Results

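Arabidopsis thaliana rosettes received extra far-red light (FR) either over the entire plant, called whole FR, or at the tip of 1 leaf only, called local FR, and transcripts of that leaf tip were measured in both cases. The 3 arrays titled as leaf tip under whole FR are set here against the 3 titled as leaf tip under local FR. These 6 arrays, chosen by their titles, are among the 24 of the series. The tip was under FR in both groups, so the comparison asks what differed in a lit tip when the rest of the plant was lit too. Under whole FR the ratio of red to far-red light, R:FR, was 0.05 over the rosette. Under local FR it was 0.05 at the tip alone, with a background R:FR of 2.3. In the touch group plants were touched in white light at an R:FR of 2.3, and control plants had that white light without touch. All groups shared the remaining conditions: photosynthetic light of 140 µmol per square metre and second, 9 h of light a day, 20 °C, single pots from 11 d after sowing, an age of 28 d and tissue taken 5 h after the start of treatment. As leaf tip the uppermost 2.5 mm of the blade of the fifth-youngest leaf were taken, and as petiole base the bottom 1.5 mm of its stalk. The labels name no accession or mutant, do not say how touch was applied, and do not say whether the local FR equipment touched the leaf.

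Far-red light is reflected and transmitted by green leaves, so a low R:FR tells a plant that neighbours are near. Phytochromes read the ratio. In low R:FR they release PHYTOCHROME INTERACTING FACTOR transcription factors, which raise auxin synthesis genes, early auxin response genes and genes of cell wall loosening. Auxin made in the leaf blade can move down the petiole, where uneven growth lifts the leaf. Cytokinin, a hormone of cell division and leaf growth, induces type-A response regulator genes, whose products dampen its own signal.

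Each array gives 1 log2 value per probe set, and a difference below is the mean log2 value of whole FR minus that of local FR unless another comparison is named. The first principal component of the 12 leaf tip arrays held 28.1% of their variance. It stood at 30.41, 27.38 and 29.58 under whole FR, at 6.33, 10.29 and 8.04 under local FR, from -20.06 to -15.71 under touch and from -19.97 to -18.48 in control. The whole FR and local FR arrays did not overlap on it, and the local FR arrays lay between whole FR and the unlit groups, as the plot of the first 2 components shows. A score along the tip to base axis, 0 at the mean of the unlit petiole bases and 1 at the mean of the unlit tips, was 0.966, 0.964 and 0.946 under whole FR and 0.96, 0.939 and 0.918 under local FR. On that score the whole FR and local FR arrays overlapped, and all 12 tip arrays lay between 0.918 and 1.008. All FR tip arrays, at 0.918 to 0.966, lay below all touch and control tip arrays, at 0.988 to 1.008. Marker levels were also compared between the whole FR and local FR tips. The 28 measured light harvesting and photosystem genes, which mark green mesophyll, averaged 11.17 to 11.241 in whole FR arrays and 11.116 to 11.161 in local FR arrays, and the 7 markers of petiole base and meristem averaged 2.093 to 2.248 and 2.072 to 2.554. None of either list differed between the groups by the test. Petiole base levels of these markers are not given here, so they do not check the leaf tip label.

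**Figure D1:**
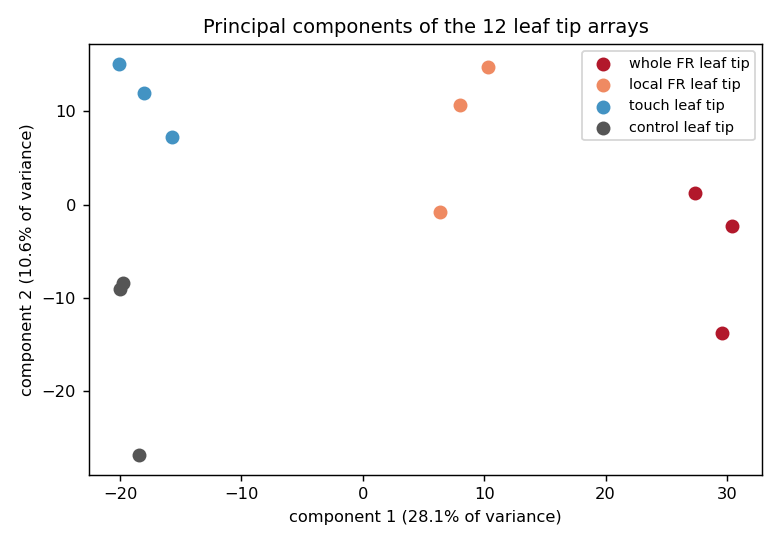
Scores of the 12 leaf tip arrays on their first principal component (horizontal axis, 28.1% of variance) and second (vertical axis, 10.6%), with 1 point per array and a colour per group. The 3 whole FR arrays sit between 27.38 and 30.41 on the first component, the 3 local FR arrays between 6.33 and 10.29, and all touch and control arrays below -15.

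Of 17504 probe sets with a gene, 390 passed the test between whole FR and local FR tips at a Benjamini-Hochberg adjusted p below 0.05 in limma, or 2.23%. Under whole FR 142 were higher (0.811%) and 248 were lower (1.42%). A difference of at least 2-fold was found for 71 of them, 34 higher and 37 lower, while 2196 probe sets had an unadjusted p below 0.05. The 3 arrays of each group did not overlap for 140 of the 142 higher and all 248 lower probe sets, and over all probe sets tested that held for 2923, or 16.7% (9.11% higher and 7.59% lower). The count leaned on the spread estimated over all 24 arrays: with the 6 arrays alone 11 probe sets passed. The differences are the same in both fits, so their signs could not change. Leaving out 1 array gave 195 (without local FR replicate 3), 216 (without whole FR replicate 1) or 240 (without local FR replicate 2). In a tissue sample, fewer cells of a type and less RNA per cell cannot be told apart.

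The shade and auxin genes IAA29, GH3.3 and IAA34 stood high in both lit groups, and their differences did not pass the test. IAA29, an early auxin and shade response gene of the Aux/IAA repressor family, had 8.09, 8.48 and 7.99 under whole FR, 7.598, 8.001 and 7.624 under local FR, 4.69, 3.73 and 4.82 under touch and 4.87, 4.68 and 4.98 in control. The whole and local FR arrays overlapped, and every one of them lay above the touch and control arrays. Its difference was 0.445 (95% interval -0.20 to 1.09, adjusted p = 0.631). GH3.3, whose product joins auxin to amino acids, averaged 6.99 ± 0.57 under whole FR and 6.53 ± 0.23 under local FR (SD, n = 3), against 1.87 ± 0.43 under touch and 1.83 ± 0.36 in control. Its difference of 0.46 had a wide interval, from -0.65 to 1.57. The Aux/IAA gene IAA34 averaged 5.15 ± 0.35 and 5.38 ± 0.25 in whole and local FR tips and 1.76 ± 0.29 in control (difference -0.235, interval -0.60 to 0.13). A miss of the threshold does not show equal levels, but for IAA34 the interval leaves out a difference of 1 in either direction.

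FHL, a partner gene in the nuclear import of phytochrome A, came nearest to the threshold among the shade genes. It had 5.40, 5.23 and 4.73 under whole FR and 3.69, 4.75 and 4.04 under local FR, with 1 local FR array inside the whole FR range, a difference of 0.96 (SE 0.27) and an adjusted p of 0.0613. It passed in 5 of 14 alternatives, among them without local FR replicate 2 (0.0235) and without whole FR replicate 3 (0.0490). The shade transcription factor gene HAT2 (difference 0.07, interval -0.31 to 0.46), the auxin synthesis gene YUC2 (-0.07, interval -0.54 to 0.41) and PIF7 (-0.42, interval -0.74 to -0.10), which encodes a main transcription factor of shade growth, did not pass either. PIF7 averaged 5.47 ± 0.23 under whole FR, 5.89 ± 0.18 under local FR and 6.78 ± 0.05 in control. With 2.23% of all probe sets called, a list of this size may hold none: 0 of 3 shade markers, 0 of 21 auxin response genes, 0 of 5 auxin synthesis and transport genes and 0 of 34 expansin and xyloglucan endotransglucosylase probe sets passed. The median difference was 0.063 for auxin response and -0.024 for the wall genes, next to 0.018 over all probe sets. Of the 21 auxin response genes many stood near the low end of the signals, where the 5th and 25th percentiles of the tip arrays were 0.93 and 1.29.

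**Figure D2:**
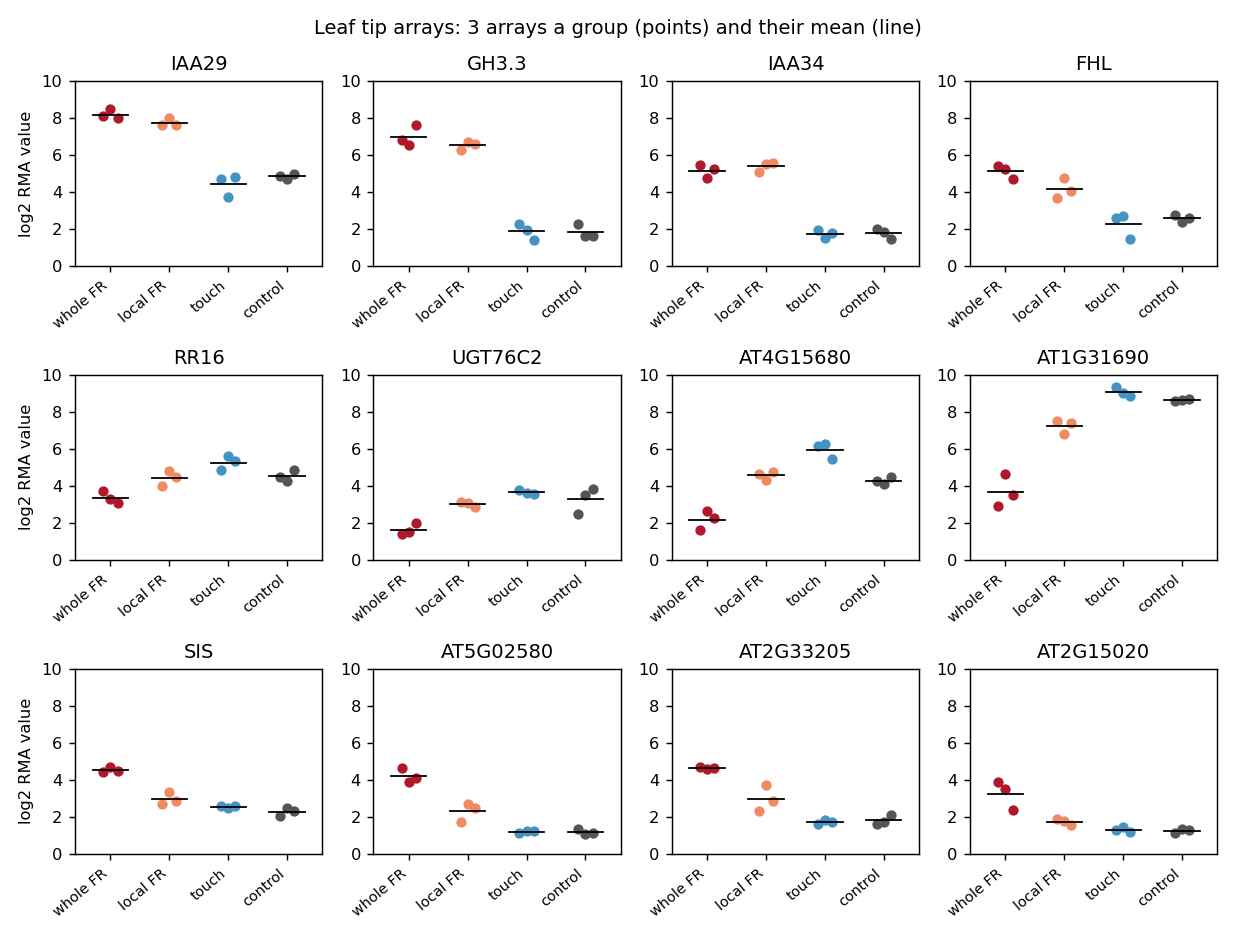
Log2 RMA values (vertical axis) of 12 genes in the 4 leaf tip groups, with 1 point per array and a line at the mean of 3 arrays. In the top row IAA29, GH3.3 and IAA34 overlap between whole FR and local FR and stand far above touch and control, in the lower 2 rows the whole FR arrays lie apart from the local FR arrays, and FHL overlaps by 1 array.

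The lowest values under whole FR relative to local FR belonged to genes that the reference table lists by locus only. AT1G31690 had 2.93, 4.66 and 3.48 under whole FR, 7.51, 6.78 and 7.38 under local FR, 9.37, 9.02 and 8.84 under touch and 8.59, 8.63 and 8.70 in control. Its difference was -3.54 (SE 0.38, adjusted p = 2.26e-05), the largest of either sign among probe sets with 1 gene. Local FR tips lay below the unlit groups and whole FR tips far below local FR, with no overlap at either step. AT4G02850 averaged 2.49 ± 0.29 under whole FR, 4.19 ± 0.28 under local FR and 4.61 ± 0.39 in control (SD, n = 3), a difference of -1.70 (SE 0.18, adjusted p = 1.89e-05). AT1G71140, AT1G27030 and AT2G43110 had differences of -1.54, -1.52 and -1.42. AT1G27030 had the order of AT1G31690, with means of 4.29, 5.81 and 6.80 in whole FR, local FR and control tips. AT2G43110 did not: its means of 5.67 under local FR and 5.78 in control were close together, and 4.25 under whole FR stood alone. AT3G14395, at -1.52, had means of 2.24 under whole FR, 3.76 under local FR, 4.45 under touch and 2.92 in control, and its adjusted p of 0.0185 reached 0.123 without local FR replicate 2, 0.0693 without local FR replicate 3, 0.0899 without whole FR replicate 3 and 0.0531 without whole FR replicate 1.

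A run of 4 neighbouring loci on chromosome 4 was lower as a block. AT4G15680 had 1.59, 2.62 and 2.28 under whole FR, 4.66, 4.34 and 4.75 under local FR, 6.14, 6.24 and 5.46 under touch and 4.25, 4.07 and 4.45 in control. Its difference was -2.42 (SE 0.25, adjusted p = 1.89e-05). Whole FR was the lowest of the 4 groups and touch the highest, and no whole FR array came near the others. AT4G15670 and AT4G15690 differed by -1.89 (SE 0.26) and -1.71 (SE 0.28), and from low to high their means ran whole FR, control, local FR, touch, as for AT4G15680. AT4G15660 had a difference of -1.01 (SE 0.24, adjusted p = 0.0249), which failed without local FR replicate 1, 2 or 3 or whole FR replicate 3, at adjusted p of 0.0625, 0.0914, 0.0560 and 0.116. The next locus, AT4G15700, had -0.92 (SE 0.28) and did not pass (adjusted p = 0.0986). Whether probes of these neighbours detect one another's transcripts was not tested.

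Of 4 measured cytokinin genes 2 were called, both lower, against 1.42% of all probe sets called lower. This list too was chosen with earlier results of these data known, so the count carries no test. RR16, a type-A response regulator, had 3.70, 3.29 and 3.06 under whole FR, 3.98, 4.80 and 4.50 under local FR, 4.83, 5.59 and 5.35 under touch and 4.47, 4.23 and 4.86 in control. All 3 whole FR arrays lay below every other array, while the local FR and control arrays overlapped. Its difference was -1.08 (SE 0.24, adjusted p = 0.0187), and without 1 array the adjusted p was 0.115 (local FR replicate 2), 0.0750 (local FR replicate 3), 0.0586 (whole FR replicate 2) or 0.0891 (whole FR replicate 3). UGT76C2, which encodes a glucosyltransferase that inactivates cytokinin, averaged 1.62 ± 0.33 under whole FR, 3.01 ± 0.15 under local FR, 3.65 ± 0.12 under touch and 3.27 ± 0.68 in control, and differed by -1.39 (SE 0.25, adjusted p = 0.00476). The response regulator gene ARR15 had a difference of -0.67 (SE 0.30, adjusted p = 0.342). UGT76C1, a close relative of UGT76C2, had the opposite sign at 0.48 (SE 0.14, adjusted p = 0.0874).

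Several genes of ribosome assembly were among the lower probe sets. That list was gathered after the values of these arrays had been seen, from the genes that stood out, so its count is a description and carries no test. Ribosomes are built in the nucleolus, where RNA polymerase I transcribes the ribosomal RNA precursor and helicases and small nucleolar ribonucleoproteins process it. NRPA1, the largest subunit of RNA polymerase I, had 5.49, 5.99 and 5.58 under whole FR, 6.41, 6.73 and 6.77 under local FR, 6.51, 6.73 and 6.57 under touch and 6.58, 6.61 and 6.75 in control. Local FR, touch and control arrays shared 1 range, and the whole FR arrays lay below it. Its difference was -0.95 (SE 0.15, adjusted p = 0.00129). RBL (REBELOTE) showed the same pattern, with means of 4.65 ± 0.12 under whole FR, 5.63 ± 0.25 under local FR, 5.64 ± 0.19 under touch and 5.76 ± 0.23 in control, and a difference of -0.98 (SE 0.15).

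The nucleolar RNA helicase gene PRH75 differed by -0.63 (SE 0.11), IMP4, which encodes a protein of a small nucleolar ribonucleoprotein, by -0.62 (SE 0.14), the WD-repeat genes YAO and PCN by -0.68 and -0.47, and PGY1, a gene of a cytosolic ribosomal protein, by -0.61 (SE 0.15). In all 7 of these genes the local FR mean lay at most 0.13 from the control mean, while the whole FR mean was lower. Of 11 genes gathered 7 passed, all lower. Over all probe sets 1.42% were called lower, but a list gathered from genes that stood out cannot be compared with that share. NRPA2, the second largest polymerase I subunit, had -0.62 (adjusted p = 0.0567), AT3G09720 (RH57) -0.54, DIM1A -0.12 and DIM1B 0.09, and none of these 4 passed. PGY1 lost its call without 5 of the 6 arrays in turn, at an adjusted p of 0.130 without whole FR replicate 1, 0.163 and 0.169 without local FR replicates 2 and 3, and 0.0752 and 0.0676 without whole FR replicates 2 and 3. The ribosomal protein list otherwise held 13 plastid-encoded genes, none of them called, and AT1G77750 (RPS13), which was lower, at -0.57 (SE 0.13, adjusted p = 0.0165, and 0.0614 and 0.0813 without whole FR replicate 1 and local FR replicate 2). Of 63 genes encoded in the plastid genome 0 passed, with a median of 0.029.

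Among the probe sets that were higher under whole FR, SIS, named for salt induction and a serine-rich product, gave the smallest adjusted p. It had 4.42, 4.68 and 4.47 under whole FR, 2.68, 3.33 and 2.84 under local FR, 2.55, 2.49 and 2.56 under touch and 2.03, 2.46 and 2.32 in control. Local FR arrays lay above all touch and control arrays, and whole FR arrays above all local FR arrays. Its difference was 1.58 (SE 0.16, adjusted p = 1.89e-05). AT5G02580 had the largest rise, with 4.65, 3.88 and 4.11 under whole FR, 1.72, 2.69 and 2.47 under local FR, and means of 1.18 and 1.16 under touch and in control (difference 1.92, SE 0.31). Its local FR arrays too were above the unlit tips, and its whole FR arrays above both. The same order of means held for AT2G33205 (difference 1.69), with means of 4.62 under whole FR, 2.93 under local FR and 1.80 in control, and for AT5G44440 (1.71), with 3.69, 1.98 and 0.90. AT2G15020 had 3.88, 3.47 and 2.34 under whole FR and 1.88, 1.74 and 1.56 under local FR (difference 1.51), while control stood at 1.23 ± 0.09. AT1G23050 and AT3G28270 differed by 1.75 and 1.68.

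AT5G25230, at 1.43 (SE 0.30), had another shape, with means of 2.70 under whole FR, 1.28 under local FR, 1.64 under touch and 2.51 in control. There local FR and touch were both low, with overlapping arrays, and whole FR stood near control. The remaining 2 of the 10 largest rises were AT3G20395 at 1.46 (adjusted p = 0.0438) and AT4G27450 at 1.40 (adjusted p = 0.0220). AT3G20395 kept its call in 4 of 14 alternatives. It failed without whole FR replicate 1, 2 or 3 or local FR replicate 1 or 3, at adjusted p of 0.174, 0.0687, 0.0814, 0.0781 and 0.263. AT4G27450 reached 0.122 and 0.0611 without whole FR replicates 1 and 3 and 0.118 without local FR replicate 2, and AT5G25230 reached 0.0603 and 0.0552 without local FR replicates 2 and 3.

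Autophagy genes were the other named group. Autophagy breaks down cell contents in the vacuole, and ATG8 proteins, which a lipid anchors to the forming vesicle, are its core. Of 41 loci on the list 11 were measured, and all but ATG3 and AT5G66930 (ATG101) belong to the ATG8 family. Of the 11 measured members 4 were higher under whole FR and none was lower, against 0.811% of all probe sets called higher. The median difference was 0.552 against 0.018 over all probe sets. The list was chosen with earlier results of these data known, so these figures are a description and carry no test. Whether probes of these ATG8 genes detect one another's transcripts was not tested. APG8H, also listed as ATG8I, had 6.03, 6.01 and 6.06 under whole FR, 5.47, 5.38 and 5.54 under local FR, 5.45, 5.29 and 5.32 under touch and 5.18, 5.23 and 5.06 in control. The whole FR arrays lay above all others, and the difference was 0.57 (SE 0.10, adjusted p = 0.00455). ATG8F had 8.37, 8.12 and 8.03 under whole FR, 7.83, 7.56 and 7.18 under local FR, 7.62, 7.78 and 7.69 under touch and 7.99, 8.01 and 7.85 in control (difference 0.65, SE 0.14, adjusted p = 0.0115). For ATG8F the local FR and touch arrays all lay below the control arrays, and the whole FR mean lay near the control mean.

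ATG8H (difference 0.91, adjusted p = 0.04989) and ATG8E (0.69, adjusted p = 0.04998) showed that second shape too: ATG8H averaged 4.16 under whole FR, 3.25 under local FR, 3.10 under touch and 3.82 in control, and ATG8E 3.31, 2.62, 2.70 and 3.34. Both sat at the edge of the threshold, and the replicate number as a block ended both calls (adjusted p = 0.0529 and 0.0528). ATG8H failed without every array except local FR replicate 1, at adjusted p of 0.0535 to 0.244, and ATG8E without every array except whole FR replicate 1, at 0.0814 to 0.203. ATG8F failed without whole FR replicate 1 (0.0746) and without local FR replicate 3 (0.0853). APG8A (0.66), ATG8C (0.55), ATG8D (0.34), AT5G66930 (ATG101, 0.23), ATG3 (0.14), which encodes the enzyme that conjugates ATG8, ATG8B (0.01) and ATG8G (-0.37) did not pass.

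**Figure D3:**
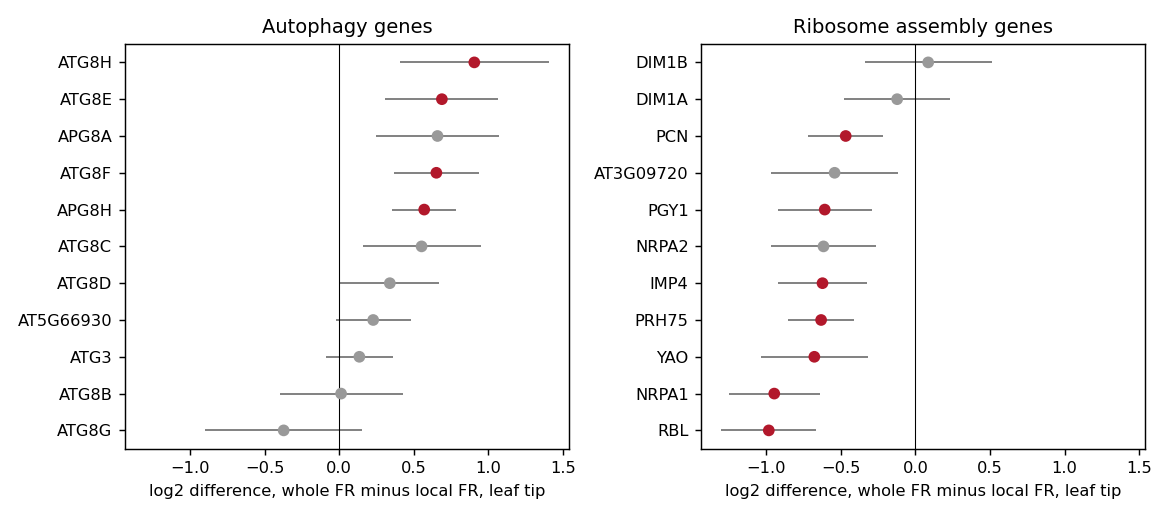
Log2 difference of whole FR minus local FR in the leaf tip (horizontal axis) for the 11 measured autophagy genes (left) and the 11 ribosome assembly genes (right), with bars for the 95% interval and red points for genes that passed the test. Of the autophagy genes 10 of 11 lie above 0 and 4 passed, and of the ribosome assembly genes 10 of 11 lie below 0 and 7 passed, a list gathered after the values had been seen.

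In all, 34 of the 367 called probe sets with 1 gene carry a symbol of their own, 16 higher and 18 lower, and the rest of these are given here as a complete set chosen after their values were seen. FDH, formate dehydrogenase of mitochondria, had 9.59, 9.36 and 9.59 under whole FR, 8.84, 8.45 and 8.62 under local FR and 8.38, 8.14 and 8.23 in control (difference 0.87, SE 0.14, adjusted p = 0.0014). FLP1, a name from the platform annotation alone, had means of 4.44, 3.13 and 0.86 in whole FR, local FR and control tips, the widest spread over these groups among the higher genes with a symbol. UGT74D1, which encodes a glucosyltransferase of auxin, rose by 0.91 (SE 0.20) to 5.43 ± 0.09 under whole FR, against 4.52 ± 0.20 under local FR and 4.04 ± 0.38 in control. The thionin gene THI2.2 (1.21), the basic helix-loop-helix gene UPB1 (0.95), PWD (0.80), CP5 (0.76), AtSec20 (0.71), ARD4 (0.70), the aldehyde dehydrogenase gene ALDH7B4 (0.50) and the isocitrate dehydrogenase gene cICDH (0.46) were higher too. UPB1 stood at 2.10 under whole FR and 1.15 under local FR, near the low end of the signals.

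On the lower side were WRKY42, a transcription factor gene (-1.23), the endoglucanase family genes GH9C2 (-0.98) and GH9C1 (-0.40), the protease gene NANA (-0.81), the nucleoporin gene NUP155 (-0.75), the chaperonin subunit gene Cpn60beta2 (-0.71), the deubiquitinase gene UBP23 (-0.65), the RNA helicase gene RH39 (-0.45) and OTC (-0.41), which encodes ornithine carbamoyltransferase. GH9C2 was the brightest of the wall genes among them, with 8.10, 8.36 and 8.29 under whole FR, 9.18, 9.14 and 9.38 under local FR and 8.72, 8.59 and 9.25 in control. Its whole FR arrays lay below all local FR and control arrays. GH9C1 stood at 0.91 and 1.31 in whole and local FR tips, at the floor of the signals. AT1G33440 (NPF4.4), of the nitrate and peptide transporter family, was 1 called of 15 nitrate and nitrogen probe sets, a number that a list of this size may hold with 2.23% of all probe sets called, at -0.93 (SE 0.22, adjusted p = 0.026). It failed without whole FR replicate 1 (0.162) or local FR replicate 2 (0.123) or 3 (0.137).

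Against 2.23% of all probe sets, no member passed in the lists for abscisic acid and cold (0 of 6), light harvesting (0 of 28), sugar transport and starvation (0 of 11), flavonoids (0 of 6), touch and early stress (0 of 5), cell cycle (0 of 6) or tubulin (0 of 7), lists too small for 0 calls to set them apart. COR15A, a cold and abscisic acid response gene, stood at 11.74 ± 0.03 under whole FR, 11.69 ± 0.08 under local FR, 11.21 ± 0.04 under touch and 10.39 ± 0.05 in control (SD, n = 3), with an interval for the difference of -0.33 to 0.44. Both FR groups thus lay above control by more than they differed. EXPA16, an expansin gene, had a difference of -0.15 (interval -0.76 to 0.46), XTH33, a xyloglucan endotransglucosylase gene, 0.63 (interval 0.19 to 1.07, adjusted p = 0.143) and the ethylene transcription factor gene EIN3 0.24 (interval -0.08 to 0.55). Markers of the guard cell lineage (4 genes), epidermis and wax (2), phloem (2) and xylem and cambium (2) had 0 calls and median differences from -0.142 to 0.265.

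Touch against control in the tip uses the other 6 tip arrays, so no array enters both comparisons. Touch changed 43 probe sets, 27 higher and 16 lower (0.246% of those tested), and 9 of the 390 were among them. These 9 are 2.31% of the 390 and 20.9% of the 43. The touch count was 0 with only the touch and control tip arrays, 18 with the 12 tip arrays, 24 without touch replicate 1 and 16 without touch replicate 2. Of the 9, 7 went the opposite way and 2 the same way. Over all 43 touch calls 31 went the opposite way and 12 the same way, a similar balance. AT4G15670, AT4G15680 and AT4G15690 rose under touch by 2.11, 1.69 and 2.07 (SE 0.26, 0.25 and 0.28) and AT1G71000 by 1.41 (SE 0.25, difference between whole and local FR -1.31). AT2G38180 and AT1G76620 also rose under touch, by 1.09 and 0.94, and were lower under whole FR than under local FR, at -0.93 and -0.72. AT5G44590 fell by 0.97 under touch and was higher under whole FR, at 0.70.

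AT1G71000 had means of 2.38 under whole FR, 3.69 under local FR, 4.24 under touch and 2.83 in control, and AT2G38180 had 3.66, 4.59, 5.09 and 4.00. AT1G22690 and AT2G03240 moved the same way in both comparisons. AT1G22690 averaged 4.78 under whole FR, 5.73 under local FR, 5.58 under touch and 6.77 in control. Over the 248 lower probe sets, 161 (64.9%) had the opposite sign under touch, and over the 142 higher ones 69 (48.6%). Over all probe sets it was 51%, a share that pools both directions. Pearson's r across the 248 lower probe sets was -0.416. Over the 142 higher probe sets r was 0.099, over all 390 it was -0.19, and over all 17504 probe sets -0.038. Probe sets are not independent replicates, and the labels do not say that local FR plants were touched.

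**Figure D4:**
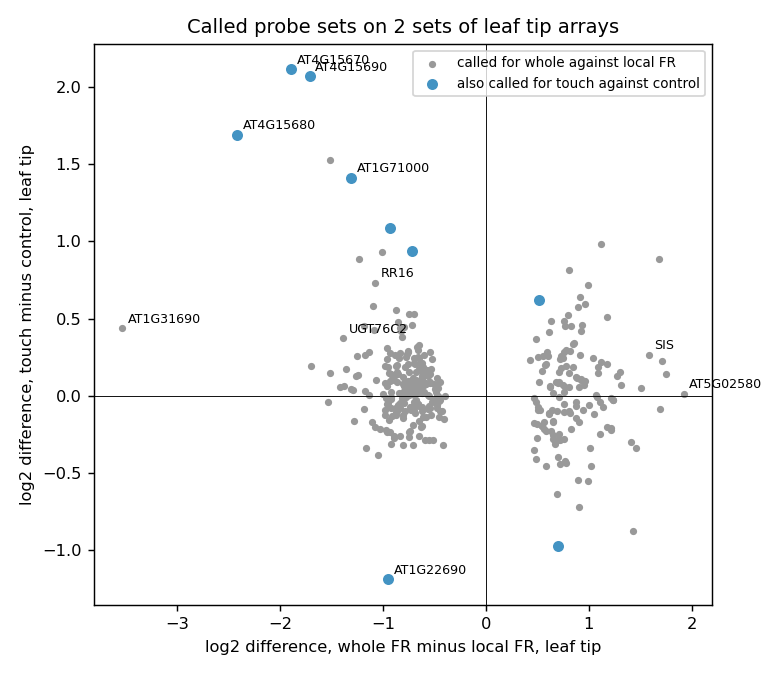
Each point is 1 of the 390 probe sets called between whole FR and local FR in the leaf tip, at that log2 difference (horizontal axis) and at its log2 difference of touch minus control in the leaf tip (vertical axis), from separate arrays. The 9 larger blue points also passed the test for touch, and 7 of them lie in the upper left and lower right quadrants, where the signs oppose. Of all 43 probe sets called for touch, 31 had opposing signs and 12 the same.

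The difference between whole FR and local FR was also taken net of touch, as whole FR minus control less local FR minus touch. That contrast holds the same 6 FR arrays and the 6 of the touch comparison, so its values are given side by side and are no second test of the first. It called 104 probe sets (0.594%), 48 higher (0.274%) and 56 lower (0.32%), but 2 when only the tip arrays were fitted. Leaving out 1 array gave 18 to 77, and the count fell by more than 1.5 times for each array except local FR replicate 1 and whole FR replicate 2. SIS stood at 1.85 net of touch (SE 0.23, adjusted p = 0.00108), AT1G31690 at -3.10 (SE 0.53, adjusted p = 0.0129), AT4G02850 at -1.51 (adjusted p = 0.0113), RBL at -1.11 (adjusted p = 0.0273), NRPA1 at -0.996 (adjusted p = 0.0356) and APG8H at 0.77 (adjusted p = 0.0271). Others did not pass: AT4G15670 stood at 0.22 (SE 0.36), AT4G15680 at -0.72 (SE 0.36), AT4G15690 at 0.36 (SE 0.39), AT3G14395 at 0.01 and AT1G71000 at 0.10. ATG8H and ATG8E stood at 0.19 (SE 0.34) and 0.05 (SE 0.26). RR16 stood at -0.35 (SE 0.34) and UGT76C2 at -1.01 (SE 0.36), neither past the threshold. AT4G01390 had the lowest value net of touch, -3.14 (SE 0.41), and AT1G57590 and AT3G28270 had the highest, 2.76 (SE 0.48) and 2.57 (SE 0.40). The contrast adds touch minus control, which was -2.09 (SE 0.29) for AT4G01390, a gene not called between whole FR and local FR. COR47, a cold response gene, passed net of touch at 0.94 (adjusted p = 0.0495) with 0.42 before it.

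The calls can also be described by where control stood relative to the 2 FR groups. Of the 142 higher probe sets, the control mean lay below both FR means for 86, between them for 52 and above both for 4. Of the 248 lower ones, it lay above both for 125, between them for 120 and below both for 3. For the touch mean the counts were 80, 62 and 0 among the higher, and 146 above both, 101 between and 1 below both among the lower. Over all 17504 probe sets the control mean lay between the FR means for 29.3%, above both for 6596 and below both for 5781. The touch mean lay between them for 30.9%. Calls were chosen for a wide gap between the FR means, which by itself favours a control or touch mean between them. These counts are therefore a description and carry no test. AT1G31690, AT5G02580 and AT2G33205 belong to the genes with local FR on the way from control to whole FR, and ATG8F, ATG8H and AT4G15680 to those with control between. ATG8E, cICDH, AT5G44590 and AT1G23390 are the 4 higher ones with control above both. For AT4G15680 the control mean of 4.26 was nearer to local FR, at 4.58, than to whole FR, at 2.16.

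At the petiole base, which lay outside the lit zone in local FR, the same contrast on other arrays called 958 probe sets (5.47%), 539 higher (3.08%) and 419 lower (2.39%). Of the 390 tip calls 271 (69.5%) had the same sign there, against 52.4% over all probe sets, 48 were called the same way and 8 the opposite way, and Pearson's r was 0.473 across the 390 and 0.132 across all probe sets. AT4G02850, AT1G27030 and AT5G02580 were called the same way at both ends, with tip minus base values of 0.54 (SE 0.25), -0.01 (SE 0.28) and -0.63 (SE 0.44) that did not pass. AT4G02850 had 5.18, 5.22 and 5.38 under whole FR and 7.359, 7.505 and 7.632 under local FR at the base (difference -2.24, SE 0.18), and AT5G02580 had 4.69, 2.78 and 3.42 against 0.89, 1.17 and 1.18 (2.55, SE 0.31). UGT76C2 was lower at the base too, at -1.03 (SE 0.25, adjusted p = 0.0151). FDH was higher there by 0.62 (SE 0.14) and UGT74D1 by 1.64 (SE 0.20).

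The difference between tip and base was tested directly. It passed for 503 probe sets (2.87%), with a tip minus base value above 0 for 225 (1.29%) and below 0 for 278 (1.59%). Tip and base pieces may come from the same plants, and this fit took all arrays as independent. Deviations of same-numbered tip and base arrays correlated at 0.035, 0.067 and 0.075 under whole FR and 0.103, 0.046 and 0.129 under local FR. IAA29 differed by 0.445 (SE 0.31) in the tip and by 3.83 (SE 0.31) at the base, with 6.40, 7.27 and 6.54 under whole FR and 1.97, 3.31 and 3.45 under local FR at the base, and a tip minus base value of -3.38 (SE 0.44, adjusted p = 7.54e-05). XTH33, at 0.63 in the tip and 2.62 at the base, gave -1.99 (SE 0.30), and FHL, at 0.96 and 2.56, gave -1.60 (SE 0.38). These 3 genes differed less at the tip than at the base. SIS had the reverse, with 2.06, 2.29 and 2.17 under whole FR and 2.04, 2.21 and 1.93 under local FR at the base, a base difference of 0.12 (SE 0.16) and a tip minus base value of 1.46 (SE 0.23). ATG8F was higher at the tip and lower at the base, at -0.51 (SE 0.14, adjusted p = 0.0283), which gave 1.16 (SE 0.19, adjusted p = 0.00122). AT4G15680 gave -2.61 (SE 0.36), but its base arrays lay between 1.02 and 1.62, near the low end of the signals, where a fall can hardly show.

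**Figure D5:**
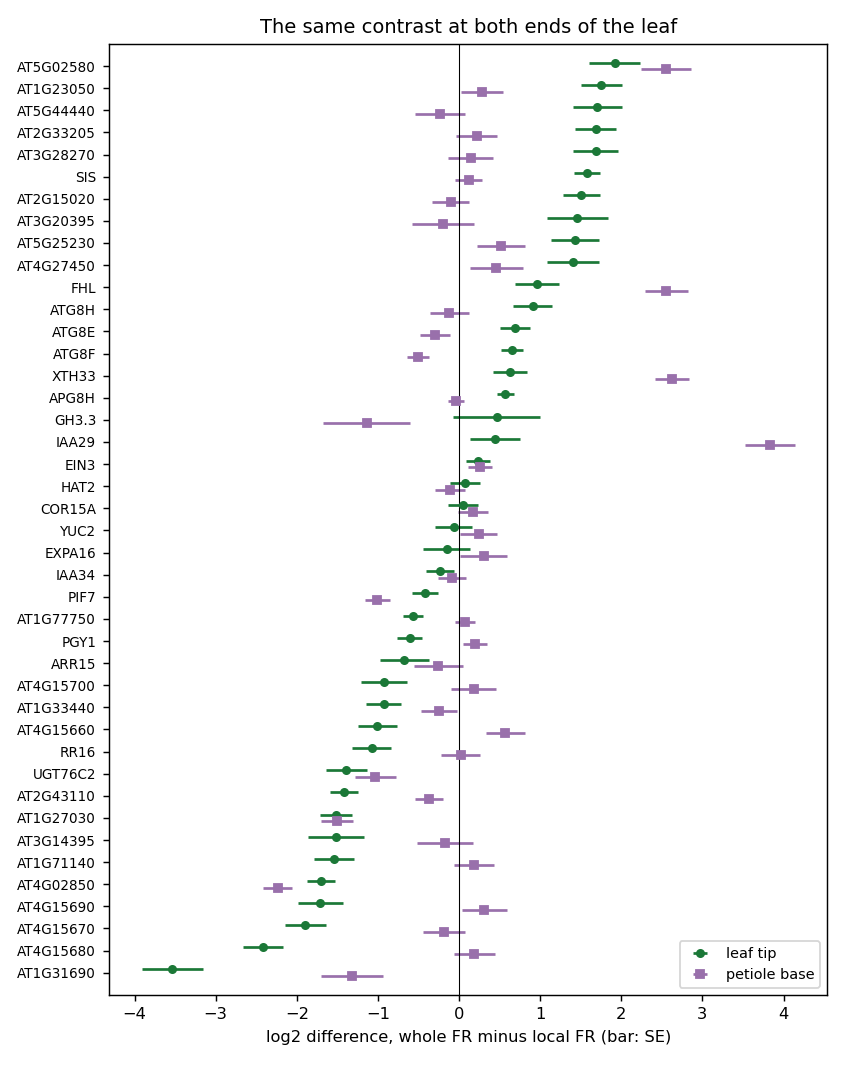
Log2 difference of whole FR minus local FR (horizontal axis) at the leaf tip (circles) and at the petiole base (squares) for the 42 named genes, with bars for the SE and genes ordered by the tip value. IAA29, XTH33 and FHL lie between 0.445 and 0.96 at the tip and between 2.56 and 3.83 at the base, while AT1G31690 and AT4G15680 lie farthest to the left at the tip.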

How the data were processed

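Biotin-labelled RNA was measured on 24 Affymetrix arrays, 3 for each of 8 groups. The values the authors deposited are on a log2 scale: RMA output of Expression Console from a core-gene analysis, per the labels. The software version, annotation release and genome build are not given in the sources used here, and scanner files were not used here. RMA makes signal distributions equal across arrays, so a shift shared by all genes is removed. The number of arrays limits the precision.

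The file holds 38408 probe sets: the platform annotation pairs 16746 with 1 gene and 758 with several, and does not list 20904. The 17504 with a gene were tested, and a gene is named only where its probe set lists no other. Of these, 16601 matched the RefSeq TAIR10.1 gene table, 1777 with a symbol of their own, and 145 keep the platform's name. No coordinates are given.

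The fit, in limma 3.58.1 under R 4.3.3, took all 24 arrays with 1 mean per group and used eBayes without trend. All tests were two-sided, with Benjamini-Hochberg adjustment over all probe sets tested within each of 5 comparisons. The fit was tested on simulated data. The members, gene lists and tests were chosen with earlier results of these data known. Genes named are the 10 highest and 10 lowest differences among called single-gene probe sets, up to 4 called members of each list, and a fixed set of shade, auxin, cytokinin, wall and AT4G15660 to AT4G15700 genes. In other comparisons those and the 2 largest each way are named. Other genes were chosen after their values were seen. Some list members were replaced where a symbol belonged to another gene, in part after values were seen.

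The labels state independent biological replicates but not what a replicate number marks. Deviations of same-numbered whole FR and local FR tip arrays correlated at 0.004, 0.098 and 0.057, so numbers were not taken as pairs. Alternatives were other sets of arrays, the replicate block, cyclic loess, 2 filters on probe sets, a variance trend, each array left out in turn and the tip to base score as a covariate, the last chosen after seeing the data. The tip and base difference was also fitted with same-numbered arrays of a treatment as a random block. That count is not given here.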

Additional observations from a re-analysis of the deposited data

Results flagged for a closer look

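For 20 of the 42 genes named by the rule, and for 6 other genes named in the text, the difference of whole FR minus local FR itself differed between leaf tip and petiole base, by limma's test of the difference between the tissues. Several were named because their tip difference was large, which favours a gap to the base. The tip minus base value was below 0 for IAA29 (-3.38), AT4G15680 (-2.61), AT1G31690 (-2.21), AT4G15690 (-2.03), XTH33 (-1.99), AT1G71140 (-1.72), AT4G15670 (-1.70), FHL (-1.60), AT4G15660 (-1.58), AT2G43110 (-1.04) and PGY1 (-0.81). It was above 0 for AT5G44440 (1.94), AT2G15020 (1.61), AT3G28270 (1.54), AT2G33205 (1.47), AT1G23050 (1.47), SIS (1.46), ATG8F (1.16), ATG8E (0.98) and APG8H (0.61). The 6 others were THI2.2 (1.94), FLP1 (1.40), AT5G44590 (0.86), ARD4 (0.82), cICDH (0.67) and UBP23 (-0.62). Among the 20, base differences were 3.83, 2.62 and 2.56 for IAA29, XTH33 and FHL, and between -0.51 and 0.57 for the rest except AT1G31690, at -1.32. At the base, AT1G71140, AT4G15660, AT4G15670, AT4G15680 and AT4G15690 had whole and local FR means from 1.19 to 1.80. These lie near the low end of the signals, where a fall can hardly show.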

How the results depend on the processing

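The count for whole FR against local FR in the tip, 390, moved to 11 with only the 6 arrays compared, 204 with the 12 tip arrays, 12 with those and the tip to base score, and 788 over all 38408 probe sets, and lay between 195 and 358 with 1 array left out. All 390 kept an unadjusted p below 0.05 in limma in the first 3 of these. In the first 2 the differences are those of the main fit, so their signs could not change. In the third all 390 kept their sign. The first 2 have fewer arrays to estimate the spread. The third has the same 12 arrays as the second, and the cause of its lower count was not tested. Cyclic loess gave 421 with 205 higher and 216 lower, and shifted the median of all probe sets to 0.040. The replicate block gave 494. Net of touch, 104 became 2 with only the groups compared and 2 with the 12 tip arrays, and 18 to 77 with 1 array left out. The petiole base count, 958, was 1744 over all probe sets and 650 to 791 with 1 array left out. The tip and base difference, 503, was 902 over all probe sets and 350 to 510 with 1 array left out. Touch, 43, became 0 with only the groups compared (1308 at unadjusted p below 0.05), 18 with the 12 tip arrays, and 16 to 53 with 1 array left out, 24 and 16 of them without touch replicates 1 and 2. Of the 29 called among 42 named genes, 23 lost the call with only the 6 arrays compared and 10 with the 12 tip arrays. With those and the tip to base score 23 lost it. The 10 were ATG8F, AT1G77750, AT3G14395, RR16, AT4G15660, AT1G33440, PGY1, AT3G20395, ATG8H and ATG8E. Of the same 29, 3, 10 and 10 lost the call without local FR replicates 1, 2 and 3, and 8, 5 and 8 without whole FR replicates 1, 2 and 3. The replicate block ended 3 of these calls (AT3G20395, ATG8H and ATG8E). FHL passed under the block (0.0476), cyclic loess (0.0385), the variance trend (0.0474) and without 2 of the arrays. SIS, AT4G02850, AT4G15680 and AT1G31690 passed in all 14 alternatives, and none of the called genes reversed. Arrays limit precision by their number, and low signals hide falls.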

Other observations

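The sugar transporter genes SWEET17 and SWEET4 came close to the threshold in the leaf tip without passing. SWEET17 averaged 3.54 ± 0.10 under whole FR, 4.36 ± 0.17 under local FR, 5.76 ± 0.29 under touch and 4.96 ± 0.62 in control (difference -0.82, SE 0.22, adjusted p = 0.0520). SWEET4 averaged 2.42 ± 0.40, 3.15 ± 0.27, 4.26 ± 0.14 and 2.83 ± 0.43 in the same groups (difference -0.73, SE 0.20, adjusted p = 0.0547), and it passed the test for touch against control at 1.43 (SE 0.20). These 2 were singled out after their values were seen.

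Neighbouring loci that were called in the same direction formed 5 runs with 12 genes in all. Beside the run from AT4G15660 to AT4G15690, these were AT3G15760 and AT3G15770, higher by 1.05 and 0.94, and the pairs AT3G47370 and AT3G47380 (-0.64 and -0.95), AT4G25730 and AT4G25740 (-0.86 and -0.65) and AT5G61330 and AT5G61340 (-0.96 and -1.18), all lower under whole FR. No count of runs expected without any difference was computed.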
